A study of Homo sapiens with 5 samples.

Results

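Chromosomes 4, 13 and 18 of VCaP, a human cell line established from prostate cancer, are described here by the peaks of 2 histone marks that lie on them. The members are all intervals that the deposited peak lists of build hg19 place on these chromosomes, 36600 of the 364358 intervals of the series. Chromosome 4 held 19433 of them, chromosome 13 held 9131 and chromosome 18 held 8036. They were set against 319927 intervals on the 19 remaining autosomes. The study immunoprecipitated chromatin with antibodies to acetylation of histone H3 at lysine 27 (H3K27ac, 2 libraries) and to monomethylation at lysine 4 (H3K4me1, 2 libraries), and sequenced 1 input library, which is not analysed here. All libraries came from VCaP cells grown in medium with fetal bovine serum, for which the labels name no treatment or genotype. A single line stands for prostate cancer here, and the copy number of its chromosomes was not measured. A region is called replicated where merged overlapping peaks hold at least 1 peak of each library of the mark, which gave 2212, 1102 and 921 H3K27ac regions and 4644, 2134 and 1944 H3K4me1 regions on chromosomes 4, 13 and 18.

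H3K27ac is laid down by acetyltransferases at promoters and enhancers that are in use and is removed by deacetylases. H3K4me1 is written mainly by the MLL3 and MLL4 methyltransferases and covers a wider set of enhancers, including ones that are primed but not active. Human chromosomes differ in how densely genes lie on them, and long stretches with few genes, often called gene deserts, tend to replicate late and to lie at the edge of the nucleus.

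The label of a low gene number was borne out by the gene table at hand, RefSeq on build GRCh38.p14, which was used for counts only because its build differs from that of the peaks. It lists 770, 338 and 270 protein-coding genes on chromosomes 4, 13 and 18 and 17748 on the remaining autosomes. Per Mb of the stretch between the first and last peak of a chromosome, called its span below, these are 4.03, 3.52 and 3.46 genes, against 7.31 on the remaining autosomes. Chromosomes 18, 13 and 4 were in that order the lowest of 22 autosomes in this measure.

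Most peaks recurred between the libraries of a mark on all 3 chromosomes. Of the peaks on chromosomes 4, 13 and 18, 85.7, 86.2 and 85.2% of H3K27ac replicate 1 and 86.0, 84.7 and 85.1% of replicate 2 overlapped a peak of the other library, against 88.1 and 86.1% on the remaining autosomes. For H3K4me1 replicate 1 these shares were 89.1, 86.3 and 86.1%, against 88.6%, and for H3K4me1 replicate 2 they were 65.96, 65.5 and 67.8%, against 69.2%. Read depth is unknown. No label says whether replicates came from separate cultures, so p-values measure only the spread between these samples, which may be technical. In tests over all libraries that spread also includes the difference between the marks.

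Chromosomes 4, 13 and 18 carried fewer peaks per Mb than the remaining autosomes, in both marks and all 4 libraries. In H3K27ac replicate 1 they held 13.8, 13.6 and 14.2 peaks per Mb, against 19.9 on the remaining autosomes. In replicate 2 they held 16.3, 16.3 and 16.6, against 23.6. Chromosomes 13, 4 and 18 were in that order the sparsest of 22 autosomes in each H3K27ac library, and none of the 19 remaining autosomes went below 16.3 in replicate 1 or 18.8 in replicate 2.

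H3K4me1 was sparser there too, but less far below the rest. Chromosomes 4, 13 and 18 held 34.2, 30.8 and 34.9 peaks per Mb in H3K4me1 replicate 1, against 43.0 on the remaining autosomes, and 37.4, 34.5 and 37.4 in replicate 2, against 45.3. They lay within the range of the remaining autosomes in this mark, which reached down to 24.2 and 26.7 peaks per Mb.

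The density ratio of chromosome 4 to the remaining autosomes was 0.691 and 0.693 in the H3K27ac libraries and 0.796 and 0.826 in the H3K4me1 libraries. For chromosome 13 the ratios were 0.683 and 0.691 for H3K27ac and 0.717 and 0.761 for H3K4me1. For chromosome 18 they were 0.715 and 0.704 for H3K27ac and 0.811 and 0.825 for H3K4me1. On each chromosome both H3K27ac ratios were thus below both H3K4me1 ratios.

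As a mean log2 ratio over the 4 libraries, density was -0.42 on chromosome 4 (SD 0.13), -0.49 on chromosome 13 (SD 0.07) and -0.39 on chromosome 18 (SD 0.12). The 4 libraries pool 2 marks, so these SDs include the difference between the marks. Within a mark the SDs were 0.002, 0.012 and 0.016 for H3K27ac and 0.037, 0.060 and 0.017 for H3K4me1. All 4 libraries were lower on each chromosome, and the exact two-sided sign-flip permutation test over libraries gave p = 0.13 for each, and 0.13 after Benjamini-Hochberg adjustment over the 3 chromosomes, the smallest value that 4 libraries allow. The difference between the marks, H3K27ac minus H3K4me1, was -0.23, -0.11 and -0.21 on the log2 scale for chromosomes 4, 13 and 18. An exact two-sided permutation test of 2 against 2 libraries gave p = 0.33 for each, again 0.33 after adjustment and the smallest possible. The size of this difference depended on the lists: with equal numbers of the widest peaks it was -0.13, 0.03 and -0.05, with exact permutation p-values of 0.33, 0.67 and 0.67. That setting drops peaks by width, and more of them from the H3K4me1 lists, so it does not show the effect of peak number alone. On chromosome 13 the difference between the marks was also smaller without H3K4me1 replicate 2 (-0.06), against the median of the remaining autosomes (-0.05) and in covered bases (-0.07).

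**Figure D1:**
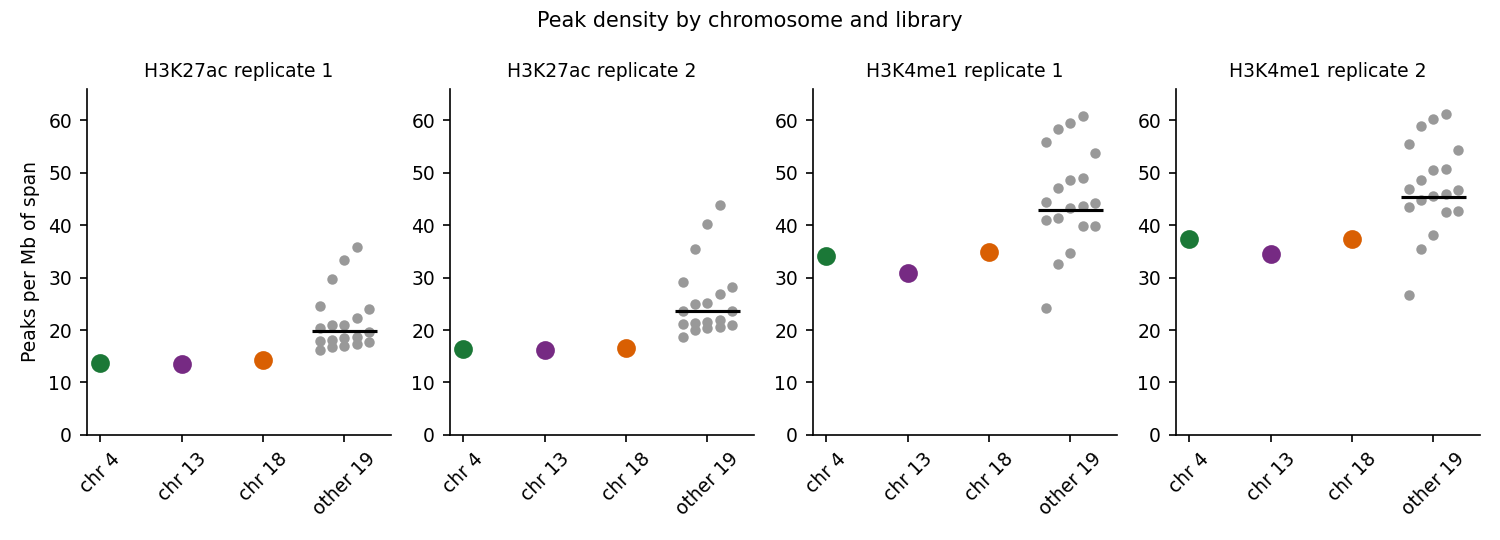
Peaks per Mb of span (y axis) in each of the 4 libraries, 1 panel a library; large points are chromosomes 4, 13 and 18, small grey points the 19 remaining autosomes and the line their pooled value. In both H3K27ac panels the 3 large points lie below every grey point, for example at 13.8, 13.6 and 14.2 in replicate 1, while in the H3K4me1 panels they lie within the grey range.

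Counted as replicated regions, chromosomes 4, 13 and 18 had 11.6, 11.5 and 11.8 H3K27ac regions per Mb, against 17.2 on the remaining autosomes. H3K4me1 regions numbered 24.3, 22.3 and 24.9 per Mb, against 30.9. The 3 chromosomes make up 6.84, 3.44 and 2.79% of the autosomal span and hold 4.82, 2.40 and 2.00% of the replicated H3K27ac regions. The number of H3K4me1 regions for each H3K27ac region was 2.099, 1.94 and 2.11, against 1.80. On chromosome 18 that ratio was the highest of 22 autosomes, although the highest remaining autosome, at 2.104, was close to it.

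Density varied along each chromosome. Over 38 windows of 5 Mb on chromosome 4, the number of H3K27ac regions ranged from 8 to 148 with a median of 49.5. Chromosome 13 had 3 to 132 regions in 19 windows with a median of 53, and chromosome 18 had 20 to 99 in 15 windows with a median of 66. The 472 windows of the remaining autosomes ranged from 0 to 287 with a median of 80. Thus each chromosome had windows as full as the middle of the other autosomes, and each had windows with few regions.

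The densest window of chromosome 4 was the first, from 1 to 5000000, with 148 H3K27ac regions (167 and 197 peaks in replicates 1 and 2) and 227 H3K4me1 regions. On chromosome 13 it was the window next to the long-arm end, from 110000001 to 115000000, with 132 H3K27ac regions (138 and 181 peaks) and 207 H3K4me1 regions. On chromosome 18 it lay inside the long arm, from 55000001 to 60000000, with 99 H3K27ac regions (117 and 143 peaks) and 188 H3K4me1 regions. The densest windows of chromosomes 4 and 13 are therefore near a chromosome end, and that of chromosome 18 is not.

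The sparsest window of chromosome 4 ran from 30000001 to 35000000, with 8 H3K27ac regions (11 and 11 peaks) and 22 H3K4me1 regions. On chromosome 13 the window from 55000001 to 60000000 had 3 H3K27ac regions (4 and 4 peaks) and 5 H3K4me1 regions, and the window from 65000001 to 70000000 also had 3, with 17 H3K4me1 regions. On chromosome 18 the window from 35000001 to 40000000 had 20 H3K27ac regions (22 and 28 peaks) and 37 H3K4me1 regions. Both marks were mostly sparse in the same windows. On chromosome 13, however, the window from 70000001 to 75000000 had 24 H3K27ac regions and only 4 H3K4me1 regions. Across windows the numbers of regions of the 2 marks correlated. Spearman's rho was 0.98 on chromosome 4, 0.92 on chromosome 13 and 0.95 on chromosome 18, against 0.89 on the remaining autosomes. These are descriptions over 38, 19, 15 and 472 windows, which share libraries and neighbours.

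**Figure D2:**
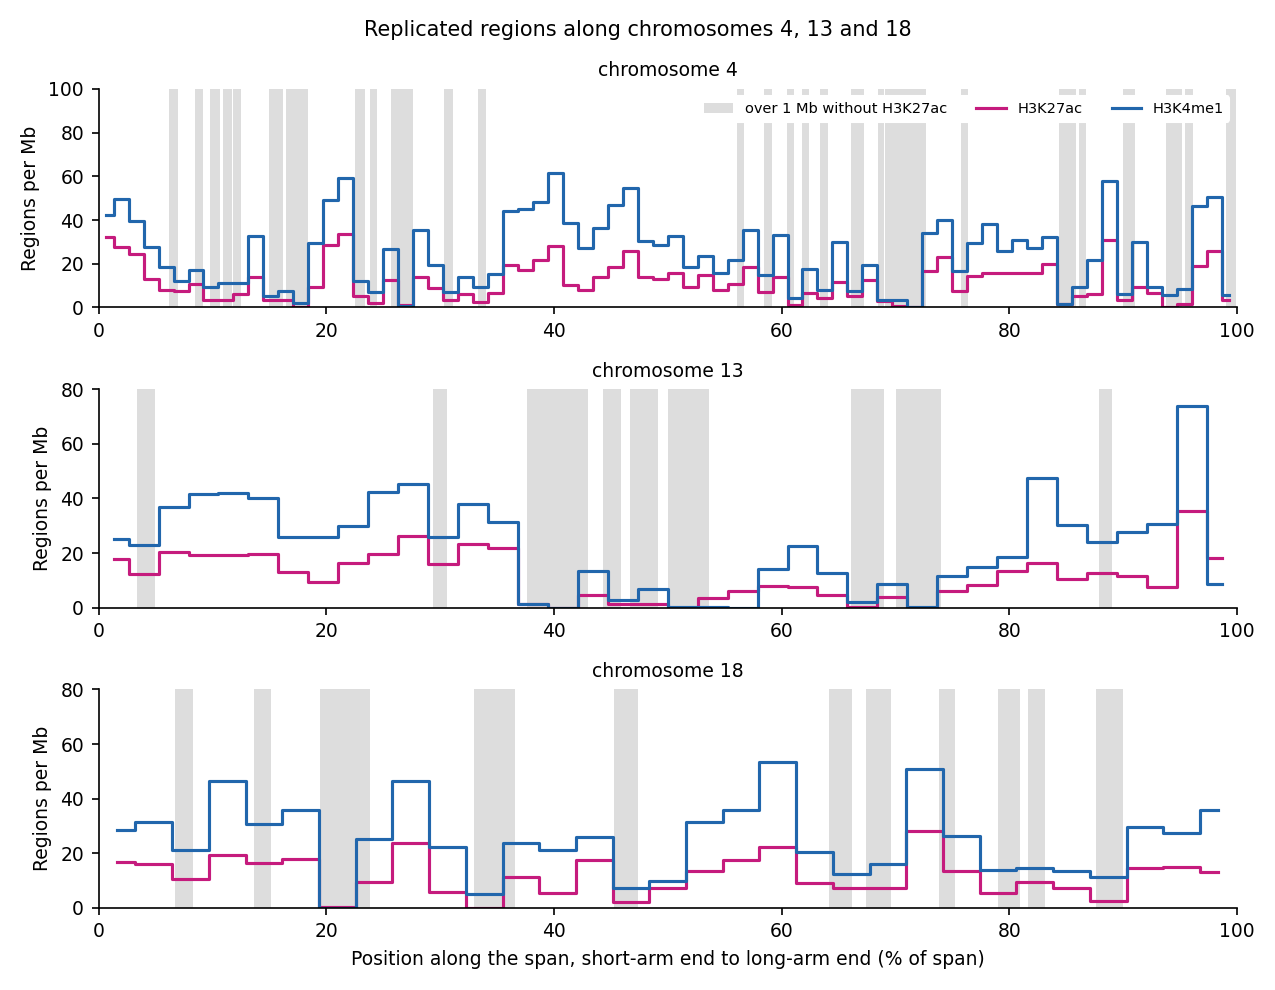
Replicated regions per Mb (y axis) of H3K27ac and H3K4me1 along chromosomes 4, 13 and 18, in steps of about 2.5 Mb, with position as a percentage of the span (x axis); grey bands are stretches over 1 Mb without an H3K27ac peak in either library. The lines of both marks mostly go up and down together, except for example in the last step of chromosome 13, and most of the bands, 31 on chromosome 4, 12 on chromosome 13 and 11 on chromosome 18, lie where both are low.

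H3K27ac regions were also distributed less evenly. The densest 10% of 1 Mb windows held 31.6% of the H3K27ac regions of chromosome 4, 29.5% of those of chromosome 13 and 28.0% of those of chromosome 18, against 25.7% on the remaining autosomes, where single chromosomes ranged from 15.1 to 32.2%. By library the shares were 31.5, 28.4 and 27.5% in replicate 1, against 24.95%, and 31.9, 30.0 and 28.1% in replicate 2, against 25.4%. For chromosome 18 the direction depended on the window size: with windows of 2 Mb its share was 0.75 percentage points below that of the remaining autosomes.

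Long gaps between neighbouring H3K27ac regions were more frequent on all 3 chromosomes, while at short range chromosome 18 differed from the remaining autosomes more than the other two. The gap to the next replicated region was within about 13 kb in 39.4, 40.3 and 36.2% of cases on chromosomes 4, 13 and 18, against 42.2% on the remaining autosomes. The distance to the nearest neighbour had a median of 6.65, 5.95 and 8.20 kb, against 5.94 kb. Chromosome 13 thus hardly differed from the remaining autosomes in this distance, while chromosome 18 had the longest of the 3 and the highest median gap of 22 autosomes.

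Gaps over 100 kb made up 16.3, 17.7 and 17.2% of all gaps on chromosomes 4, 13 and 18, against 12.3% on the remaining autosomes, none of which exceeded 15.9%. In H3K27ac replicate 1 the shares were 14.1, 15.1 and 14.1%, against 10.4%, with a highest single chromosome of 13.3% among the rest. In replicate 2 they were 11.7, 12.4 and 12.53%, against 8.77% and a highest of 11.8%, so that chromosome 4 fell within the range there. The mean gap was 84.7, 85.6 and 83.2 kb, against 56.6 kb, and the median gap 22.5, 21.9 and 25.6 kb, against 17.9 kb.

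The median gap rested on the library more than the mean did. It was 17.4, 17.1 and 21.4 kb in H3K27ac replicate 1, against 14.6 kb, and 10.3, 9.68 and 13.1 kb in replicate 2, against 9.66 kb. In replicate 2, chromosome 13 and the remaining autosomes had nearly the same median.

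**Figure D3:**
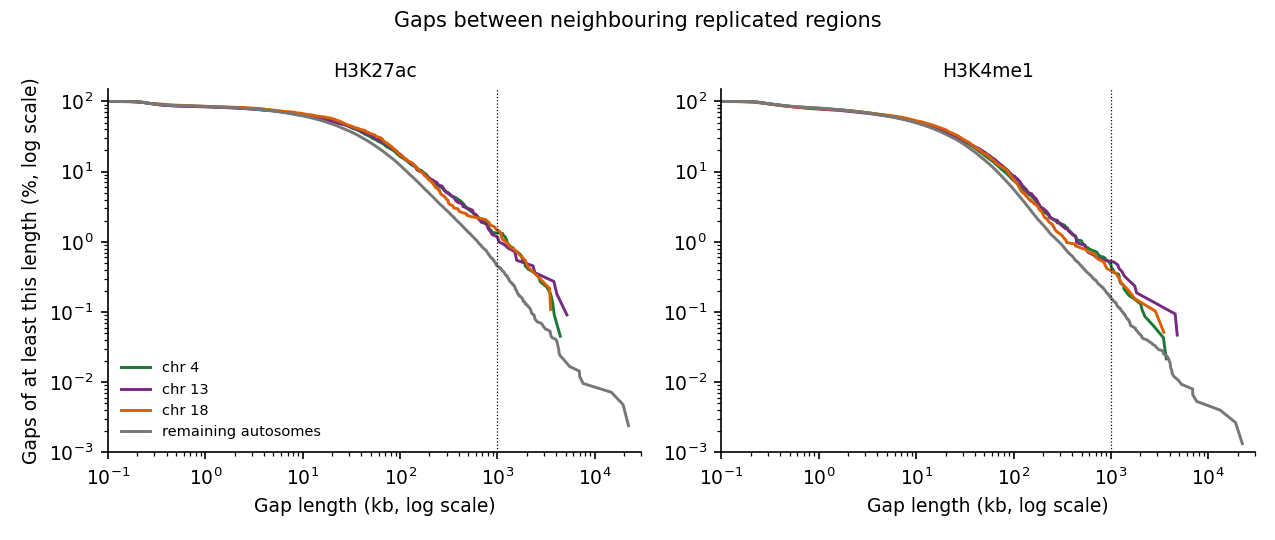
Percentage of gaps between neighbouring replicated regions (y axis, log scale) that are at least as long as the value on the x axis (kb, log scale), for H3K27ac and H3K4me1; the dotted line marks 1 Mb. The 4 curves run close together on the log scale up to about 10 kb. Chromosome 18 nevertheless has fewer H3K27ac gaps within about 13 kb (36.2%, against 42.2% on the remaining autosomes). Beyond about 10 kb the curves of chromosomes 4, 13 and 18 lie above that of the remaining autosomes, with mean H3K27ac gaps of 84.7, 85.6 and 83.2 kb, against 56.6 kb. The far tail of the remaining autosomes holds their longest gap of 22.2 Mb.

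Stretches of more than 1 Mb with no H3K27ac peak in either library were common on all 3 chromosomes. Chromosome 4 had 31 that added up to 52.0 Mb, or 27.2% of its span. Chromosome 13 had 12 with 22.96 Mb (23.9%) and chromosome 18 had 11 with 19.1 Mb (24.6%). The remaining autosomes had 160 with 352 Mb (14.5%), and the highest single one, at 31.1% of its span, was above all 3 chromosomes. Per 100 Mb of span these are 16.2, 12.51 and 14.1 stretches, against 6.59, and the highest of the 19 remaining autosomes was 12.3. The median length was 1.46, 1.397 and 1.55 Mb, against 1.49 Mb. For stretches over 2 Mb the difference in share of the span was smaller: they took up 9.27, 11.9 and 8.06%, against 7.95%. By number there were 3.14, 3.13 and 2.57 of them per 100 Mb, against 1.81. Stretches that span a centromere are included in both measures and were not left out at this length, so these shares do not show that the excess fades in long stretches.

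Taken singly, H3K27ac replicate 1 gave 15.7, 13.6 and 15.4 stretches per 100 Mb on chromosomes 4, 13 and 18, against 7.004, and replicate 2 gave 15.7, 12.51 and 15.4, against 7.09. The highest of the remaining autosomes was 12.3 and 13.0 in these lists, so that chromosome 13 lay inside the range in replicate 2. Some of the stretches span a centromere, where little sequence is assembled. With the stretch that holds the longest run without any interval left out on every chromosome, 25.3, 18.6 and 20.2% of the span lay in such stretches, against 9.56%, and the highest of the remaining autosomes was 19.6%. On chromosomes 4 and 18 this leaves out the centromere, but on chromosome 13 it leaves out the longest stretch inside the long arm, so its 18.6% cannot be set beside the others.

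**Figure D4:**
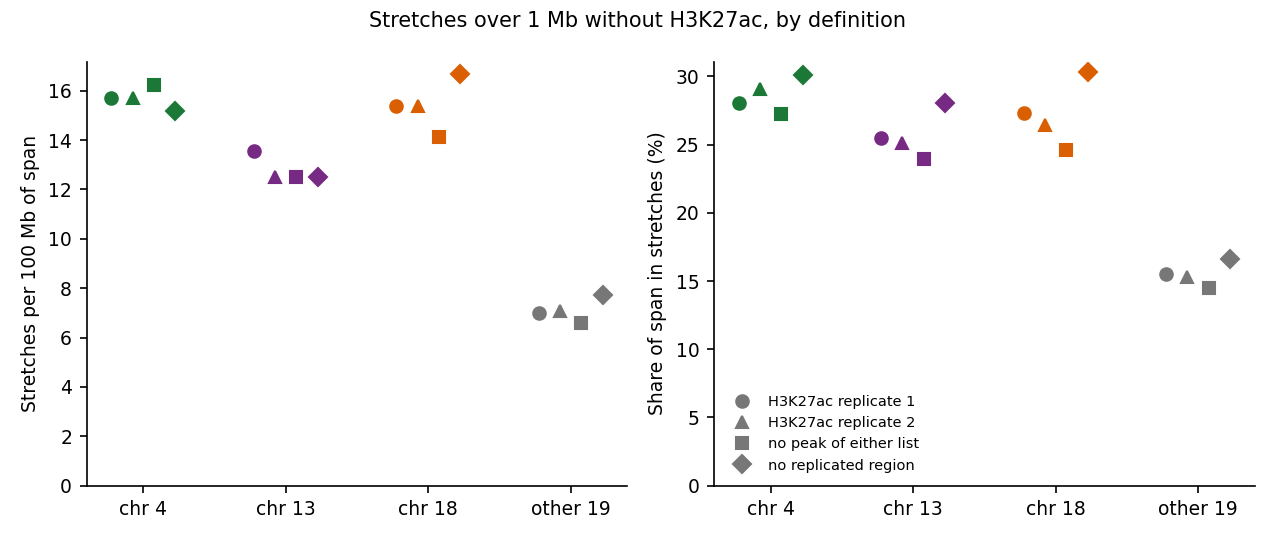
Stretches over 1 Mb without H3K27ac per 100 Mb of span (left) and their share of the span in percent (right) for chromosomes 4, 13 and 18 and the 19 remaining autosomes pooled; symbols are the libraries taken singly, the absence of any peak and the absence of a replicated region. By every definition the 3 chromosomes lie above the pooled rest, for example at 16.2, 12.51 and 14.1 stretches per 100 Mb, against 6.59.

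The longest stretch of chromosome 4 lay in the short arm from 31458260 to 35228825 (3.77 Mb) and held 8 and 10 H3K4me1 peaks of replicates 1 and 2. The next, from 49022236 to 52708270 (3.69 Mb), spans the centromere and held 0 and 1. The third ran from 161286989 to 164030111 (2.74 Mb) with 6 and 7 H3K4me1 peaks. In the long arm before it, 5 stretches followed each other between 130775495 and 138801686 with less than 100 kb between neighbours. These 8.03 Mb held 7 H3K27ac peaks in each library, which formed 6 replicated regions, and 20 and 22 H3K4me1 peaks.

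On chromosome 13 the longest stretch ran from 55243586 to 60411202 (5.17 Mb) and held 14 and 18 H3K4me1 peaks. It is followed in length by stretches from 86373498 to 90166023 (3.79 Mb, 9 and 7 H3K4me1 peaks) and from 67119001 to 69602185 (2.48 Mb, 1 and 3). The assembled part of this acrocentric chromosome begins beyond its centromere, so none of the 3 is a centromere. The stretch from 67119001 was separated by 1 peak in each H3K27ac library from another that ended at 70642704, and that peak did not make a replicated region. Both together span 3.52 Mb with 1 and 3 H3K4me1 peaks.

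On chromosome 18 the longest stretch, from 15199446 to 18623711 (3.42 Mb), spans the centromere and held 3 and 6 H3K4me1 peaks. The stretch from 25757691 to 28614082 (2.86 Mb) held 1 and 5 H3K4me1 peaks and no replicated H3K4me1 region. The third ran from 68374750 to 70240473 (1.87 Mb) with 7 and 8 H3K4me1 peaks.

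H3K4me1 was rare but mostly present in these stretches. The replicated H3K4me1 regions that lay wholly inside numbered 109 on chromosome 4, 42 on chromosome 13 and 56 on chromosome 18. All stretches of chromosome 18 held at least 1 H3K4me1 peak, while 1 stretch on chromosome 4 and 1 on chromosome 13 had none in either library. H3K4me1 replicate 1 had 3.25, 3.05 and 3.92 peaks per Mb inside the stretches and 45.8, 39.6 and 44.96 outside them. Replicate 2 had 4.13, 3.62 and 5.59 inside and 49.9, 44.2 and 47.75 outside. On the remaining autosomes replicates 1 and 2 had 2.61 and 3.42 inside and 49.8 and 52.4 outside. Without the stretches that hold the longest run free of any interval, the inside values of the remaining autosomes became 3.71 and 4.88, which is above chromosome 4 (3.50 and 4.43) and chromosome 13 (3.15 and 3.65) and below chromosome 18 (4.58 and 6.42).

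Single stretches differed in this respect. The one with the most replicated H3K4me1 regions on chromosome 18, from 10727334 to 11850693 (1.12 Mb), held 15 of them, or 13.4 per Mb. On chromosome 13 the longest stretch also had the most, 11 regions, all of them beyond 59782529, since the first 4.54 Mb of the stretch held no peak of any list. On chromosome 4 the highest number was 7, shared by 4 stretches, the longest of which ran from 22518600 to 23974526 (4.81 per Mb).

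Outside the stretches the chromosomes came closer to the remaining autosomes without reaching them. There the H3K27ac density ratio was 0.812 and 0.814 on chromosome 4, 0.767 and 0.776 on chromosome 13 and 0.810 and 0.798 on chromosome 18 for replicates 1 and 2. For H3K4me1 it was 0.919 and 0.951, 0.794 and 0.843, and 0.902 and 0.911. The stretches were chosen for lacking H3K27ac, so these ratios are a description.

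Peaks were slightly narrower on the 3 chromosomes in every library. The median H3K27ac peak of replicate 1 was 852.5, 835 and 804.5 bp wide on chromosomes 4, 13 and 18, against 912.5 bp on the remaining autosomes, and that of replicate 2 was 582, 569 and 548.5 bp, against 630 bp. The median H3K4me1 peak was 422, 425 and 409 bp in replicate 1, against 454 bp, and 627, 592.5 and 606 bp in replicate 2, against 658 bp. The width ratio averaged 0.935, 0.914 and 0.893 over the 4 libraries, lower in 4 of 4 on each chromosome. The exact sign-flip permutation test gave p = 0.13 for each, and 0.13 after adjustment and the smallest possible. With equal numbers of the widest peaks the mean log2 width ratio was smaller on chromosome 4 (-0.06, against -0.10 with all peaks) and chromosome 18 (-0.10, against -0.16). That setting selects peaks by width itself, so it cannot show how the width ratio depends on peak number. Among the remaining autosomes the lowest H3K27ac medians were 804.5 bp in replicate 1 and 572 bp in replicate 2, so that chromosomes 13 and 18 lay below all of them in replicate 2. The lowest H3K4me1 medians were 389 and 525 bp, below those of all 3 chromosomes.

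Among the widest H3K27ac peaks chromosome 4 was not below the remaining autosomes, while chromosomes 13 and 18 were. The 90th percentile of H3K27ac width was 3040 bp in replicate 1 and 2452 bp in replicate 2 on chromosome 4, against 2892 and 2428 bp on the remaining autosomes. On chromosome 13 it was 2778 and 2390 bp and on chromosome 18 it was 2705 and 2264 bp. Of the peaks on chromosome 4, 2.21 and 1.19% exceeded 5 kb, against 1.89 and 1.03%, while chromosome 13 had 1.61 and 0.704% and chromosome 18 had 1.35 and 0.618%. The covered length was 18.6, 17.4 and 17.5 kb per Mb in H3K27ac replicate 1, against 26.8. In replicate 2 it was 16.8, 15.8 and 15.9 kb, against 24.9. On chromosome 4 in replicate 1 the ratio of covered length to the remaining autosomes (0.694) was no lower than that of peak density (0.691).

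The widest replicated H3K27ac regions were 14151 bp on chromosome 4 (169926237 to 169940387), 10792 bp on chromosome 13 (111558696 to 111569487) and 11781 bp on chromosome 18 (3446263 to 3458043). H3K4me1 regions covered 51.8, 63.6 and 31.6% of their length. Next in width were 12054 bp on chromosome 4 (156586875 to 156598928), 10748 bp on chromosome 13 (104816864 to 104827611) and 9021 bp on chromosome 18 (55896582 to 55905602), with 45.6, 67.0 and 83.4% under H3K4me1. The widest H3K4me1 regions were 11888 bp on chromosome 4 (87943943 to 87955830), 6822 bp on chromosome 13 (110428076 to 110434897) and 6822 bp on chromosome 18 (55897747 to 55904568). H3K27ac covered 58.1, 77.1 and 100% of these, the last lying wholly inside the second widest H3K27ac region of its chromosome.

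Joined over gaps of up to about 13 kb, H3K27ac regions formed 7.02, 6.86 and 7.54 domains per Mb on chromosomes 4, 13 and 18, against 9.93. A single region made up 62.6, 62.3 and 66.2% of domains, against 60.5%. The domain with the most H3K27ac on chromosome 4, from 169920616 to 170124205, held 36 regions with 89.4 kb. On chromosome 13 it ran from 104608470 to 104663033, with 7 regions and 25.2 kb (25.5 and 23.2 kb in the libraries, which count peaks of either list), and 24.0% of it lay under H3K4me1. On chromosome 18 it ran from 55868311 to 55915587, with 10 regions and 25.7 kb (24.7 and 23.9 kb), and 65.01% lay under H3K4me1. Domains with at least 20 kb of H3K27ac numbered 6, 1 and 1, against 114, or 0.448, 0.152 and 0.170% of domains, against 0.473%.

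How often the marks coincided depended on which mark was counted, and the 3 chromosomes differed from each other. Of H3K27ac regions, 78.2% on chromosome 4 (95% interval 76.4 to 79.9%), 69.5% on chromosome 13 (66.7 to 72.2%) and 74.05% on chromosome 18 (71.1 to 76.9%) overlapped a replicated H3K4me1 region by at least 1 bp, against 74.2% on the remaining autosomes (73.8 to 74.7%). These are exact binomial intervals and cover counting error over regions only. By library, 76.0 and 74.8% of the H3K27ac peaks of chromosome 4 did so, 66.9 and 66.9% of those of chromosome 13 and 73.1 and 72.3% of those of chromosome 18, against 73.2 and 71.6%. Chromosome 4 was higher by 3.04 percentage points on average (SD 0.28, n = 2 libraries) and chromosome 13 lower, with a mean difference of -5.48 points (SD 1.09). The exact sign-flip permutation test gave p = 0.5 for both, the smallest that 2 libraries allow. Chromosome 18 differed by 0.25 points (SD 0.55, exact permutation p = 1), with opposite signs in the libraries. Single remaining autosomes spread from 50.8 to 89.6%, far more widely than these differences.

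The sizes of these differences moved with the lists and the overlap asked for. For replicated regions they were 3.92, -4.73 and -0.19 points on chromosomes 4, 13 and 18. With equal numbers of the widest peaks they were 1.54, -5.74 and -4.64 points, with exact permutation p-values of 1, 0.5 and 0.5 over libraries. With an overlap of 50% of the shorter interval they were 4.59, -1.46 and 1.75 points. Leaving out H3K4me1 replicate 2 gave 2.503 points on chromosome 4, and leaving out H3K4me1 replicate 1 gave -2.75 points on chromosome 13.

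Of H3K4me1 regions, 43.9% on chromosome 4 (42.5 to 45.3%), 42.7% on chromosome 13 (40.6 to 44.9%) and 41.4% on chromosome 18 (39.2 to 43.6%) overlapped H3K27ac, against 47.5% on the remaining autosomes (47.1 to 47.8%). Here all 3 chromosomes were lower, and chromosomes 18 and 13 had the lowest shares of 22 autosomes, while chromosome 4 was just above the lowest remaining one (43.8%). The 3 chromosomes also had more H3K4me1 regions for each H3K27ac region (2.099, 1.94 and 2.11, against 1.80). The lower share is therefore not independent of the densities of the marks, and a difference beyond that was not tested. In H3K4me1 replicate 1 the shares were 38.7, 37.7 and 35.8%, against 41.8%, and in replicate 2 they were 33.4, 32.4 and 31.6%, against 37.5%. The mean differences were -3.56, -4.58 and -5.92 points (SD 0.75, 0.70 and 0.11, n = 2 libraries), each with an exact permutation p of 0.5, the smallest possible. For replicated regions the differences were -3.60, -4.75 and -6.13 points. They were smaller with equal numbers of the widest peaks (-1.43, -2.57 and -4.696 points) and with an overlap of 50% (-2.51, -2.32 and -4.13 points).

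**Figure D5:**
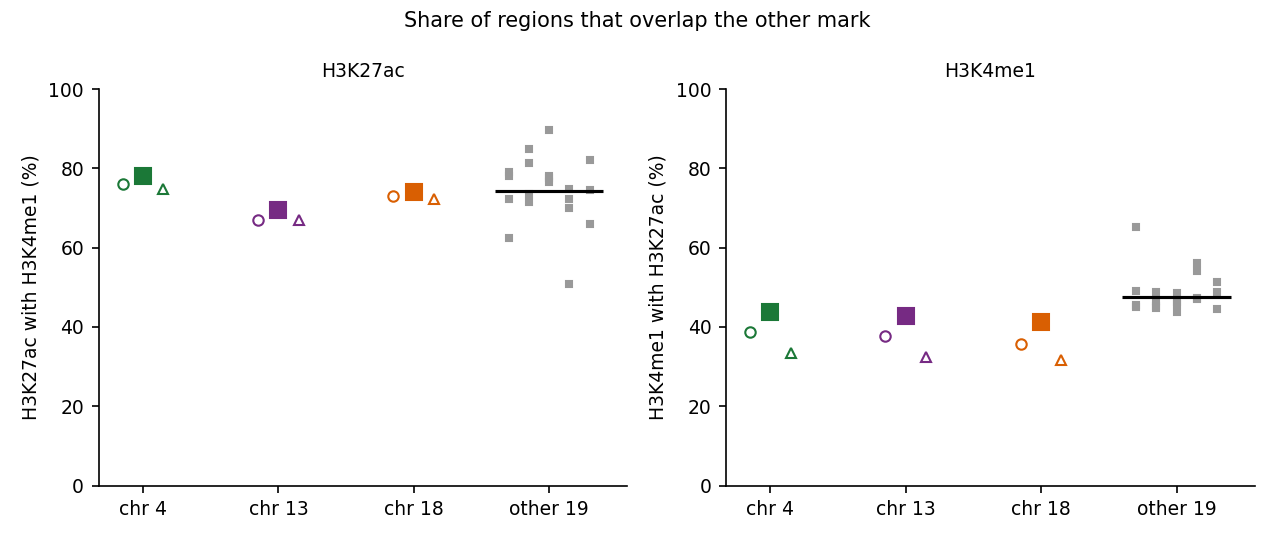
Percentage of replicated H3K27ac regions that overlap H3K4me1 (left) and of H3K4me1 regions that overlap H3K27ac (right); filled squares are replicated regions of chromosomes 4, 13 and 18, open circles and triangles the peaks of replicates 1 and 2, grey squares the 19 remaining autosomes and the line their pooled share. On the left chromosome 4 (78.2%) lies above and chromosome 13 (69.5%) below the line at 74.2%, and on the right all 3 lie below the line at 47.5%.

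The direction held in each pairing of single lists for chromosomes 4 and 13. On chromosome 4, 72.0 to 84.1% of H3K27ac peaks lay on a peak of 1 H3K4me1 list, and each of the 4 values was above its counterpart on the remaining autosomes, where they ran from 70.3 to 80.5%. On chromosome 13 the values ran from 65.7 to 76.8% and each was below its counterpart. Regions with no H3K4me1 peak of either list made up 11.9% of H3K27ac regions on chromosome 4, 18.9% on chromosome 13 and 16.3% on chromosome 18, against 16.1%.

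The differences appeared in most classes of width. Among H3K27ac regions cut into 5 width classes over all autosomes, chromosome 4 had H3K4me1 on 70.6, 73.2, 79.7, 81.6 and 85.9% from narrowest to widest, against 68.6, 70.04, 71.6, 75.4 and 85.5%. Chromosome 13 had 66.1, 67.4, 66.02, 69.4 and 79.7%, lower in all 5 classes. Of H3K4me1 regions in the narrowest class, 23.5, 23.9 and 24.4% of those on chromosomes 4, 13 and 18 had H3K27ac, against 28.9%, and in the widest class 74.3, 71.7 and 69.4%, against 76.6%. Between these, chromosome 13 was close to the remaining autosomes in the class next to the narrowest (36.5%, against 36.9%), and chromosome 18 was above them in the middle class (43.6%, against 42.9%).

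On chromosome 4, as on the remaining autosomes, H3K27ac regions that stood alone carried H3K4me1 less often than clustered ones. With another H3K27ac region within about 13 kb the share on chromosome 4 was 82.4% (1373 regions, 80.3 to 84.4%). Between that distance and 100 kb it was 72.4% (736 regions), and with none within 100 kb it was 63.1% (103 regions, 53.0 to 72.4%). The remaining autosomes had 77.7, 68.2 and 63.2% in these classes. Chromosome 13 had 75.1% (692 regions), 59.2% (360 regions) and 66% (50 regions, 51.2 to 78.8%). Chromosome 18 had 76.7% (532 regions), 69.97% (343 regions) and 73.9% (46 regions, 58.9 to 85.7%). On chromosomes 13 and 18 the interval of the isolated class was wide and took in the shares of the other classes. These intervals cover counting error over regions only, and no values by library are given for the classes.

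H3K4me1 regions without H3K27ac lay farther from the nearest H3K27ac region than elsewhere. The median distance was 17.4, 20.7 and 18.99 kb on chromosomes 4, 13 and 18, against 14.8 kb. Distances over 100 kb were found for 13.2, 15.2 and 16.1% of them, against 9.58%. H3K27ac regions were themselves farther apart on these chromosomes, with mean gaps of 84.7, 85.6 and 83.2 kb, against 56.6 kb. These distances are therefore not independent of H3K27ac spacing, and a difference beyond it was not tested.

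One window of chromosome 13 held H3K27ac almost without H3K4me1. It was singled out after its values were seen. From 70000001 to 75000000 there were 24 replicated H3K27ac regions (29 and 37 peaks in replicates 1 and 2), and 1 of them overlapped a replicated H3K4me1 region, or 4.17% (0.105 to 21.1%). Each H3K4me1 list taken singly covered 2 of the 24. On the rest of chromosome 13, 765 of 1078 H3K27ac regions (71.0%) had H3K4me1. The share was the lowest of all 502 autosomal windows of 5 Mb with at least 20 H3K27ac regions. Low shares were also found elsewhere: the next lowest windows, on chromosomes 6, 5 and 16, had 15.5, 18.5 and 20.9%, all within the interval of this window, and 21 of 440 windows of the remaining autosomes were under 50%.

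The H3K27ac regions of the window lay in its first 4 Mb, and the 2 Mb before it belong to the neighbouring empty stretches described above, with 1 peak in each H3K27ac library and no replicated region. Between 68000001 and 74000000 there was 1 replicated H3K4me1 region, with 2 peaks in each H3K4me1 list, beside 30 and 37 H3K27ac peaks. In the next 6 Mb, from 74000001 to 80000000, there were 98 replicated H3K4me1 regions (133 and 164 peaks) and 40 H3K27ac regions (48 and 59 peaks). The H3K27ac regions of the window were narrower, with a median of 823 bp, against 1185 bp on the rest of chromosome 13. Without the window the share of chromosome 13 was 71.0%, still below the 74.2% of the remaining autosomes.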

How the data were processed

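For each of the 4 immunoprecipitated libraries the authors deposited a list of peaks with the chromosome, start, end and name of each peak and no other column, so the values used are positions in bp and carry no height or significance. Per the submitters' processing notes, the tools included MACS2 2.1.0, Bowtie 1.1.2, Trimmomatic 0.33 and bcl2fastq 2.17, and the build was hg19. No threshold or control for peak calling was found in the labels. Coordinates are counted from 1. Minimum peak width and joining distance differ between lists, which affects peak number and width. Members and lists were chosen with earlier results of these data known.

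From the lists, densities, gaps, widths and overlaps (at least 1 bp) were computed with Python 3.11.15 and numpy 2.4.6, and binomial intervals with scipy 1.17.1. The functions were tested on simulated intervals. Chromosome length was taken as the span between the outermost peaks of any list. Exact permutation tests treated libraries as replicates, and regions were not treated as replicates. On each chromosome the text names the 3 longest stretches without H3K27ac, the stretch with the most H3K4me1, the densest and sparsest 5 Mb windows, the 2 widest H3K27ac regions, the widest H3K4me1 region and the top domain. Genes were not assigned, and no sequence is shown, because no hg19 reference was used here. Chromosomes X and Y were not analysed here.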

Additional observations from a re-analysis of the deposited data

Results flagged for a closer look

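On chromosome 4 the marks differed in direction when set against the remaining autosomes. The share of H3K27ac peaks on a replicated H3K4me1 region was higher there by 2.84 and 3.24 percentage points in replicates 1 and 2, while the share of H3K4me1 peaks on a replicated H3K27ac region had differences of -3.03 and -4.09 points. Every library of one mark thus moved one way and every library of the other the opposite way. The 2 shares count overlaps of the same marks from either side, so their directions are not independent. Both libraries of a mark were also set on the same replicated regions of the other. Chromosome 4 had 2.099 H3K4me1 regions for each H3K27ac region, against 1.80 on the remaining autosomes. The difference between the marks was not tested, and it was the only one of 21 comparisons (7 measures on 3 chromosomes) with such a split.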

How the results depend on the processing

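Of 192 alternative values for 27 results, 166 were counted as kept. Where a test was run, this means the same direction and call. Elsewhere it means a move within the spread between libraries or, for numbers of empty stretches, within 1.5 times. No test could pass 0.05 here, so a kept call says nothing of stability, and sizes moved more: the report gives the moves of over 1.5 times in the differences between marks, in width and in shares. The density ratio was below 0 on the log2 scale for every chromosome under every alternative. Equal numbers were reached by keeping the widest peaks, which selects by width as well as by number. With equal numbers of widest peaks, the H3K27ac minus H3K4me1 difference in log2 density ratio of chromosome 13 turned to 0.0348, and the differences in recurrence between replicates were -2.29 points on chromosome 4 and -3.32 on chromosome 18. The difference in the share of H3K27ac regions with H3K4me1 on chromosome 18 was -4.64 points with equal numbers of widest peaks, turned to 1.75 points with an overlap of 50% of the shorter interval and to 0.298 with the union of lists, and it ranged from -0.726 to 0.644 when 1 library was left out (0.644 without H3K27ac replicate 1). Stretches over 0.5 Mb numbered 62, 30 and 21 and those over 2 Mb 6, 3 and 2 on chromosomes 4, 13 and 18, against 491 and 44 on the remaining autosomes. Per 100 Mb these are 32.5, 31.3 and 26.9, against 20.2, and 3.14, 3.13 and 2.57, against 1.81. The ratio of median gaps was 1.16 on chromosome 4 with the union, and without a replicate it ranged from 1.06 to 1.19 on chromosome 4 and from 1.002 to 1.17 on chromosome 13. The surplus in the densest 10% of windows was 7.59, 5.27 and 3.82 points with windows of 0.5 Mb and 5.26, 1.15 and -0.746 with windows of 2 Mb. It was 6.28 on chromosome 4 with the union, and without a replicate it ranged from 6.51 to 6.57 on chromosome 4, from 3.497 to 4.59 on chromosome 13 and from 2.504 to 2.67 on chromosome 18. Where no cause is named, the cause was not tested. The share of chromosome 13 without the 70 to 75 Mb window and the alternatives on recurrence were added after seeing the data. Peak numbers gave no sign that equal replicate numbers pair H3K27ac with H3K4me1 libraries. Deviations from the means of the marks had r = -0.0541 between equal numbers, taken over 28807 windows of 100 kb. This value cannot exclude a shared culture, on which the labels are silent. The replicate block gave the same differences between marks (-0.228, -0.106 and -0.205) with an exact permutation p of 0.5, and changed no call. Depth is unknown and limits what absence of a peak can show.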

Other observations

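Set against gene number, the 3 chromosomes were not poor in either mark. For each protein-coding gene of the RefSeq table (build GRCh38.p14, counts only) there were 2.87, 3.26 and 3.41 replicated H3K27ac regions on chromosomes 4, 13 and 18, against 2.35 on the remaining autosomes, and 6.03, 6.31 and 7.20 H3K4me1 regions, against 4.22. Chromosome 18 had the most H3K27ac regions per gene of 22 autosomes and chromosome 13 the next most. Chromosome 4 lay inside the range of the remaining autosomes, from 1.35 to 3.17. The 3 chromosomes were chosen for few genes, and gene number is the divisor, so these ranks are not independent of that choice. The lowest value, 1.35, was that of chromosome 19, which had the most genes per Mb (24.6).

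In peak density the arms of chromosome 18 differed more than those of chromosome 4. The share of empty stretches was higher on the short arm of chromosome 4 but on the long arm of chromosome 18. Split at the longest run without any interval, the short arm of chromosome 18 had 19.1 and 22.9 H3K27ac peaks per Mb in replicates 1 and 2 and the long arm 13.8 and 15.9. H3K4me1 gave 43.1 and 46.7 on the short arm and 34.7 and 37.1 on the long arm. On chromosome 4 the short arm had 14.6 and 17.4 H3K27ac peaks per Mb and the long arm 13.8 and 16.4, while H3K4me1 was lower on the short arm (33.6 and 35.2) than on the long arm (35.3 and 39.2). Stretches over 1 Mb without H3K27ac took up 33.6% of the short arm (9 stretches) and 23.04% of the long arm (21) of chromosome 4. On chromosome 18 they took up 15.5% of the short arm, with only 2 stretches, and 22.5% of the long arm, with 8. No test was run on arms.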
